A study of Homo sapiens with 24 samples.

Results

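The cytosolic ribosomal protein genes are the protein-coding genes for the structural proteins of the large (RPL, RPLP) and small (RPS, RPSA) subunits of the ribosome, together with a few closely named paralogues. The rule used gene name, biotype and place on the autosomes or chromosome X, with no measured value, but was set with earlier results of these data known. Of the 58735 genes in the expression table, 84 met it: 52 of the large and 32 of the small subunit. Of these, 80 passed the filter on low values (at least 1 FPKM in at least 4 libraries), as did 13242 genes in all. FPKM is the number of sequenced fragments per kilobase of gene length, scaled to library size.

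The samples were macrophages of THP-1, a human monocytic leukaemia line, which all groups reached from monocytes through 72 hours in the phorbol ester PMA at 20 nM. A line with stable lentiviral shRNA against CES1, which encodes carboxylesterase 1, a hydrolase of esters and lipids, was compared with a line labelled WT, to ask what the enzyme does in naive and polarised macrophages. Each line was left resting (M0), treated with LPS at 1 ug/ml plus interferon gamma at 100 ng/ml (M1) or treated with IL-4 at 100 ng/ml (M2), with 4 libraries of total RNA in each of the 6 groups. The sources used here do not say whether the WT line carried a control vector, whether CES1KD is a clone or a pool, or whether the 4 libraries came from separate cultures. A p-value here therefore covers the spread of these libraries alone, which may be technical.

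The libraries held 14881563 to 26671681 fragments on genes. CES1 itself ranged from 4.04 to 7.78 FPKM in the 12 WT libraries and from 0 to 0.124 FPKM in the 12 CES1KD libraries, and its mean was 98.9% (M0), 99.4% (M1) and 99.2% (M2) lower, where the submitters state a reduction of at least 85%. Of 8 myeloid markers, 7 passed the filter, with a summed level of 401 to 762 FPKM over all libraries, while none of 17 markers of 5 other cell types did and no list of these summed to more than 1.55 FPKM in any library. Replicate 2 of CES1KD M2 stood apart: it correlated with the rest of its group at 0.951 to 0.957 across genes, against 0.989 to 0.991 among the other 3, and where leaving it out ended or made a call given here, or moved a called value or a count by over 1.5 times, both values are given. In bulk RNA, fewer cells of a type and less RNA per cell cannot be told apart.

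The eukaryotic cytosolic ribosome joins a small subunit, which decodes the mRNA, to a large subunit, which forms the peptide bond, and most of its proteins are present once per ribosome. Their mRNAs are among the most abundant in a growing cell, and most begin with a terminal oligopyrimidine (TOP) tract, a C at the transcription start followed by a run of C and T bases, through which mTOR and the RNA-binding protein LARP1 control their translation and stability together. Ribosomal proteins that are not built into ribosomes are normally degraded, and a few act elsewhere, as RPL5 and RPL11 do when they bind the ubiquitin ligase MDM2.

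The start-site sequences show what most of these genes share and which named members lack it. RefSeq annotates at least 1 start for 67 of the 84 genes on build GRCh38.p14. In 47 of them (70.1%) an annotated start was a C followed by at least 4 more bases, all C or T. Only the coding strand was read. Where a gene had several starts, the longest tract was taken, for these genes, for the other genes and for the windows. The same letters stood at the start of 6.07% of 14829 other protein-coding genes of the table. Each window holds 25 bases, 10 before the start and 15 from it onward, 5′ to 3′ on the coding strand, with the tract in capitals. The windows are those of RPS23 and RPS14, with large differences in all 3 states, and of RPSA, with a large difference in M1. The others are of paralogue pairs (RPL22 and RPL22L1, RPS27 and RPS27L), of a chromosome 5 paralogue (RPL26L1) and of a pair on chromosome 19 (RPL13A, RPS19).
RPS23: cggtgcttctCTCTTTCgctcaggc
RPS14: ccctcccactCTCTCTTTCCggtgt
RPSA: tgccgcctgtCTTTTCCgtgctacc
RPL22: cgctcacctcCCTTTCTaactccgc
RPL22L1: ccgtagcttcCTCTCTgctctcgcg
RPS27: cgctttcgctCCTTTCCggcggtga
RPS27L: gatgccgagcgcagatcgcttgcag
RPL26L1: tccaggggtcggcgaacgaaacgcg
RPL13A: aaacctcctcCTTTTCCaagcggct
RPS19: ccccgtcgttCCCTTTCCCCTggct
The windows of RPS23 (chr5:82278340-82278364), RPS14 (chr5:150449725-150449749), RPL22 (chr1:6199581-6199605), RPL22L1 (chr3:170870181-170870205) and RPS27L (chr15:63157463-63157487) are on the minus strand. Those of RPSA (chr3:39406710-39406734), RPS27 (chr1:153990752-153990776), RPL26L1 (chr5:172958719-172958743), RPL13A (chr19:49487598-49487622) and RPS19 (chr19:41860245-41860269) are on the plus strand. RPS27L and RPL26L1 have no such tract at any annotated start, and the tract of RPL22L1, at 6 bases, is shorter than the 7 of RPL22. A tract at an annotated start is a description of these letters and not a measured start site.

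As a whole, the ribosomal protein genes took a smaller share of the RNA in CES1KD than in WT macrophages in every state, and a smaller share after LPS plus interferon gamma in both lines. In WT M0 they took 4.09%, 4.02%, 4.00% and 4.12% of all fragments, and in CES1KD M0 2.48%, 2.64%, 2.71% and 2.56%. In M1 the shares were 2.83%, 2.67%, 2.60% and 3.15% in WT and 1.63%, 1.5%, 1.5% and 1.74% in CES1KD. In M2 they were 3.94%, 3.64%, 3.68% and 4.13% in WT and 2.66%, 2.07%, 2.52% and 2.72% in CES1KD. The WT and CES1KD libraries did not overlap in any state, and every CES1KD M1 library lay below every other library.

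The mean share in M0 was 4.06% ± 0.0546 in WT and 2.60% ± 0.101 in CES1KD (SD, n = 4 in each group), 36.0% lower. It was 2.81% ± 0.247 against 1.59% ± 0.115 in M1, 43.4% lower, and 3.85% ± 0.227 against 2.49% ± 0.297 in M2, 35.2% lower, with a CES1KD mean of 2.63% ± 0.102 without replicate 2. On the deposited FPKM scale, whose library sizes the authors adjusted, the summed level was 30.5%, 38.4% and 32.6% lower in M0, M1 and M2. Without replicate 2 of CES1KD M2, the M2 sum was 28.3% lower. No p is given for this sum. The 1144 pseudogenes named after these genes, which can take some of their reads, took 0.164% of fragments in WT M0 and 0.107% in CES1KD M0, a difference in the same direction. The summed myeloid markers also differed between the lines, at 401 to 427 FPKM in WT M0 and 541 to 601 FPKM in CES1KD M0, with 4 of the 7 called lower and 3 higher. In M1 they stood at 591 to 660 FPKM in WT and 655 to 762 FPKM in CES1KD, and in M2 at 504 to 560 FPKM and 493 to 647 FPKM. Transcripts of the mitochondrial genome took 1.81% to 2.39% of fragments in WT M0 and 1.29% to 1.48% in CES1KD M0, 1.36% to 1.77% and 1.01% to 1.16% in M1, and 1.91% to 2.80% and 1.21% to 1.55% in M2. The part of either in the lower share of ribosomal protein genes was not tested.

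**Figure D1:**
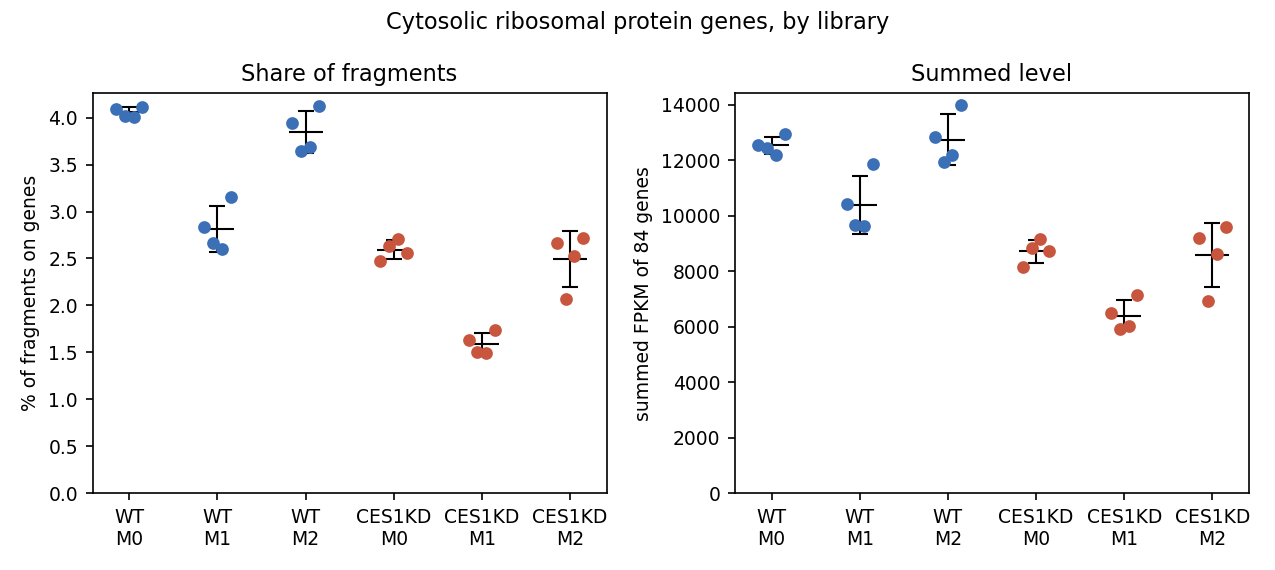
Share of all fragments (left) and summed FPKM (right) of the 84 ribosomal protein genes in each library; points are libraries, bars the group mean and SD (n = 4), blue WT and red CES1KD. WT M0 libraries lie at 4.00% to 4.12% and CES1KD M0 libraries at 2.48% to 2.71%, and on the left the M1 groups lie below the M0 and M2 groups of the same line, while on the right CES1KD M1 reaches past the lowest CES1KD M2 library, replicate 2.

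The genes differed widely in their level. RPS12 (375 FPKM, mean over all 24 libraries), RPS18 (362 FPKM) and RPL13A (359 FPKM), the last known in human monocytic cells for a role in silencing inflammatory mRNAs, stood highest. RPS27L (2.90 FPKM) and RPL26 (2.15 FPKM) were among the lowest of those that passed the filter, and the median of the 80 was 95.4 FPKM. The 4 that did not pass were RPL36A (0.565 FPKM), RPS10 (0.486 FPKM), RPL3L (0.0202 FPKM, 27 fragments in 12 libraries) and RPL10L, which had no fragment in any library. RPL3L and RPL10L are paralogues known from muscle and testis.

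These levels carry limits of counting. The gene length behind each FPKM was the union of all annotated exons, which was 1.06 to 33.3 times as long as the main mRNA (median 2.80), so levels are understated to a different degree from gene to gene. Taken per kilobase of main mRNA, RPS18 came first, RPS15 next, and RPS12 held place 29. RPL17, RPL22, RPL26, RPL36A and RPS10 are among those overlapped on the same strand, over at least 50% of their span, by another protein-coding gene. Shared exons were not checked. Reads of such genes, and of genes with many pseudogenes (61 named after RPL7, 66 after RPL21), can be split, so their values are uncertain. The sources used here do not say how the authors counted such reads or whether they used strand.

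In resting macrophages, 63 of the 80 genes were lower in CES1KD than in WT and 1 was higher (limma, adjusted p under 0.05), where 26.3% of all genes tested were called lower and 28.1% higher. Their median log2 difference was −0.54, a ratio of 0.687, against 0.00 for all genes. In M1, 69 were lower and 1 higher (all genes 28.7% and 28.5%), with a median of −0.70. In M2, 66 were lower and 1 higher (all genes 26.7% and 25.6%), with a median of −0.56. Without the library that stood apart, the M2 count was 62 lower and 1 higher, with a median of −0.47.

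The groups did not overlap, with every CES1KD library below every WT library, for 69 genes in M0 (28.3% of all genes), 62 in M1 (25.1%) and 62 in M2 (21.2%). The same 60 genes were called lower in all 3 states, as were 16.9% of all genes tested. A further 7 were called lower in 2 states and 4 in 1 state, and 9 in none, among them RPL22L1, RPL28, RPL36, RPL37, RPL39, RPL39L, RPL41 and RPS27. Of these 9, 2 lay above zero in M0 (RPL22L1 and RPS27), while RPL39 had −0.60 and RPL41 −0.39 there without passing the test. The sign of the difference was negative in all 3 states for 75 genes. Other coding genes were also taken by small mRNA size or by high level, 1 trait at a time. The median was −0.16, −0.18 and −0.21 (M0, M1, M2) for 557 other coding genes with a main mRNA under 1000 bases. It was 0.09, 0.05 and −0.03 for 707 other coding genes at 50 FPKM or more. The part of mRNA size or level in the differences was not tested.

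**Figure D2:**
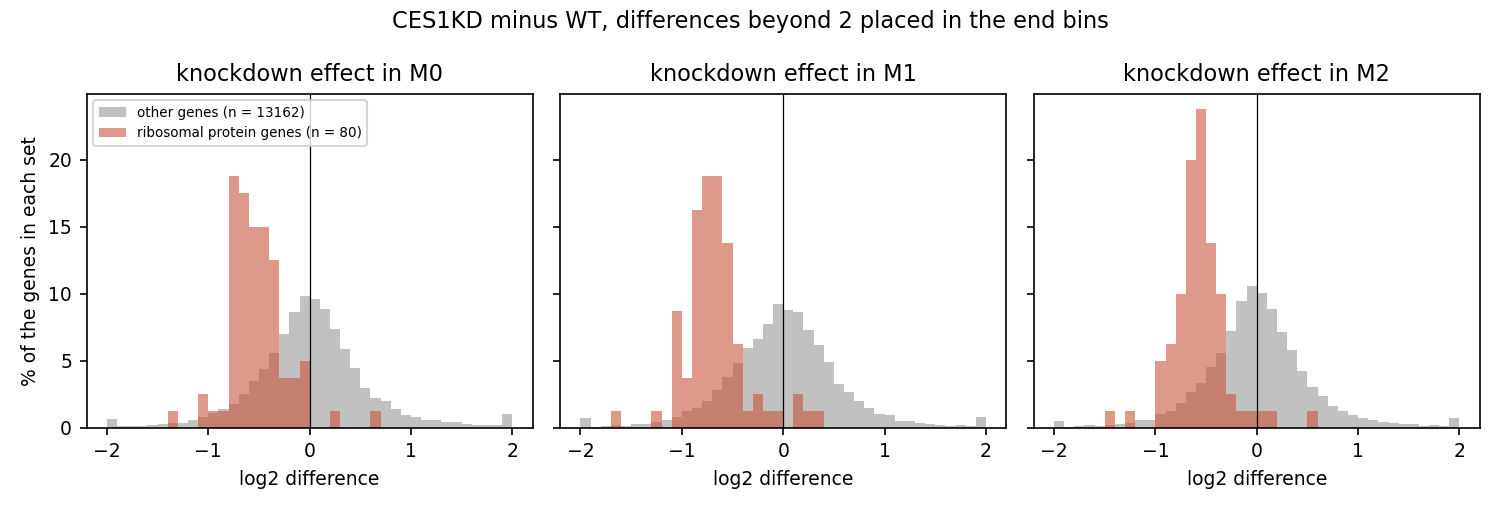
Distribution of the log2 difference between CES1KD and WT (horizontal axis, log2(FPKM + 1)) for the 80 ribosomal protein genes (red) and the other genes tested (grey), as a percentage of each set, in M0, M1 and M2. The ribosomal protein genes form a peak to the left of zero, with medians of −0.54, −0.70 and −0.56, while the other genes centre on zero.

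Among small subunit genes, RPS23, whose protein sits at the decoding centre, fell most in all 3 states. Its level was 62.9, 57.0, 60.3 and 63.1 FPKM in WT M0 and 22.5, 24.5, 25.1 and 23.4 FPKM in CES1KD M0. In M1 it was 44.5, 34.9, 41.9 and 46.0 FPKM in WT and 12.4, 11.0, 12.6 and 14.9 FPKM in CES1KD. The CES1KD libraries all lay below the WT libraries, also in M2, where the means were 65.3 and 23.9 FPKM. The log2 differences were −1.31 (M0), −1.64 (M1) and −1.42 (M2), each with a standard error of 0.093 (limma, adjusted p 7.04e-11, 1.61e-12 and 2.27e-11).

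RPS14, a small subunit protein whose reduced dosage is known for the anaemia of a myelodysplastic syndrome with a deletion on chromosome 5, was next. It stood at 144, 137, 129 and 148 FPKM in WT M0 and at 60.7, 64.8, 70.5 and 67.1 FPKM in CES1KD M0, and the groups did not overlap in any state. The difference was −1.07, −1.25 and −1.23 in M0, M1 and M2 (SE 0.16, limma adjusted p 4.44e-06, 4.70e-07 and 6.80e-07), and −1.01 in M2 without the library that stood apart. RPS6, the substrate of S6 kinase, fell by 0.78, 1.00 and 0.80 on the log2 scale, from means of 387, 294 and 404 FPKM in WT to 225, 146 and 231 FPKM in CES1KD. RPSA, also known as the laminin receptor, fell by 0.49 in M0, 1.04 in M1 and 0.57 in M2.

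Among large subunit genes, RPL7 and RPL5 had the largest falls in M0. RPL7 was at 271, 265, 255 and 278 FPKM in WT M0 and at 118, 131, 132 and 125 FPKM in CES1KD M0, with log2 differences of −1.07, −1.09 and −0.92 over the 3 states (SE 0.055). RPL5, which with RPL11 escorts a ribosomal RNA of the large subunit, was at 242, 241, 228 and 261 FPKM in WT M0 and at 124, 128, 124 and 128 FPKM in CES1KD M0. Its differences were −0.94, −1.03 and −0.91 (SE 0.048), and for both genes no CES1KD library reached the lowest WT library in any state. RPL37A was among the 4 lowest in M1, at −1.09, where WT stood at 78.9, 68.0, 69.8 and 95.8 FPKM and CES1KD at 37.6, 31.9, 33.0 and 42.1 FPKM. RPL21 was among the 4 lowest in M2, at −0.91, with means of 155 FPKM in WT and 82.5 FPKM in CES1KD. RPL3, a protein near the peptidyl transferase centre, fell by 0.75, 0.94 and 0.78, and RPLP0, the base of the stalk that recruits elongation factors, by 0.50, 0.71 and 0.58.

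The 3 most abundant members fell with the rest. RPS12 fell by 0.48, 0.55 and 0.56 on the log2 scale in M0, M1 and M2, RPS18 by 0.56, 0.94 and 0.54, and RPL13A by 0.58, 0.73 and 0.74. Mean RPL13A was 466, 382 and 477 FPKM in WT and 312, 231 and 285 FPKM in CES1KD.

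**Figure D3:**
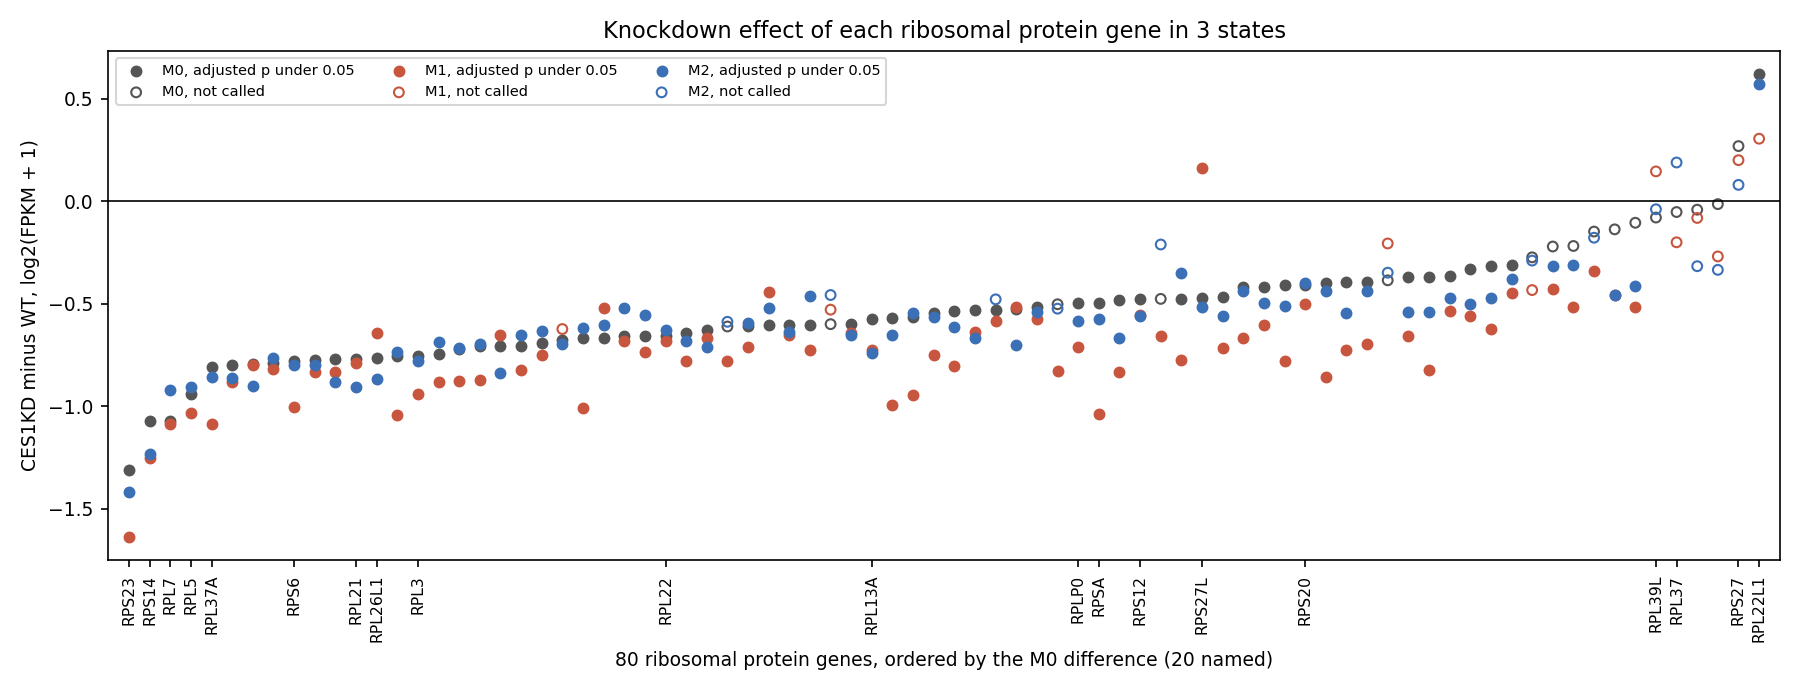
Log2 difference between CES1KD and WT (vertical axis, log2(FPKM + 1)) for each of the 80 genes, ordered by the difference in M0, with 20 of them named; grey is M0, red M1 and blue M2, filled where limma's adjusted p was under 0.05. Nearly all points lie below zero, RPS23 lies lowest at −1.31, −1.64 and −1.42, and RPL22L1 lies at the right end at 0.62, 0.31 and 0.57.

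RPL22L1 was called higher in CES1KD, in M0 and M2, against the direction of the other genes. It is the paralogue of RPL22, an RNA-binding protein of the large subunit that in mouse is known to repress RPL22L1. In M0 it was at 4.72, 5.02, 3.93 and 5.0 FPKM in WT and at 8.72, 7.54, 6.93 and 7.70 FPKM in CES1KD, with no overlap. In M2 it was at 3.25, 5.83, 4.71 and 5.84 FPKM in WT and at 8.22, 5.54, 8.62 and 8.53 FPKM in CES1KD, so that only the library that stood apart, at 5.54 FPKM, fell within the WT range. The differences were 0.62 in M0 and 0.57 in M2 (SE 0.15, limma adjusted p 0.000994 and 0.00220), and 0.31 in M1, which did not pass (adjusted p 0.0779). Without the library that stood apart, the M2 difference was 0.70 and the M1 difference of 0.31 passed.

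RPL22 itself was lower. In M0 it was at 25.7, 24.6, 23.1 and 24.7 FPKM in WT and at 13.8, 14.6, 16.2 and 16.3 FPKM in CES1KD. Its differences were −0.66, −0.68 and −0.63 (SE 0.12, limma adjusted p 7.64e-05, 4.55e-05 and 0.000133), and its groups did not overlap in any state. Both genes carry a tract at their annotated start, as shown above.

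RPS27L, a paralogue of RPS27 that is known as a p53 target in human cells, changed direction with the state. It was at 3.51, 3.83, 3.87 and 3.77 FPKM in WT M0 and at 2.13, 2.33, 2.75 and 2.49 FPKM in CES1KD M0. In M1 it was at 2.87, 2.73, 2.72 and 3.17 FPKM in WT and at 3.26, 3.49, 3.42 and 3.17 FPKM in CES1KD, where the highest WT and the lowest CES1KD library lay side by side. The difference was −0.47, 0.16 and −0.52 in M0, M1 and M2 (SE 0.060, limma adjusted p 7.29e-07, 0.0247 and 2.25e-07). The change from M0 to M1 in this difference was 0.64 (SE 0.085, adjusted p 6.96e-06). The M1 call was lost with total fragments as library size (0.0980) and on leaving out replicate 2 or 3 of WT M1 or of CES1KD M1 (0.15 each).

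RPS27 was at 280, 301, 331 and 314 FPKM in WT M0 and at 361, 387, 388 and 343 FPKM in CES1KD M0. Although these libraries did not overlap, its differences of 0.27, 0.20 and 0.08 did not pass the test (SE 0.18, limma adjusted p 0.220, 0.362 and 0.740). Of the other paralogue pairs, RPL7L1 fell by 0.42, 0.67 and 0.44 and RPL26L1 by 0.76, 0.64 and 0.87. RPL26, which overlaps another annotated gene, was called lower in M1 alone, at −0.66, with −0.48 and −0.21 in M0 and M2. That call was lost without the filter and on leaving out WT M1 replicate 4 (−0.43) or CES1KD M1 replicate 2 (−0.60) or 3 (−0.58). RPL39, at the exit tunnel, had values of −0.60, −0.53 and −0.46 with a standard error of 0.31, and RPL39L values of −0.08, 0.15 and −0.04 with one of 0.21, and neither was called in any state. Without the library that stood apart, RPL39 was called in M0 at the same difference (limma adjusted p 0.0452), while its M2 value was −0.09. RPS27 then had 0.31 in M2 and RPL26 −0.05, and neither passed. RPL3L and RPL10L were too low for a test. RPL10 fell by 0.52, 0.51 and 0.70, and by 0.43 in M2 without the library that stood apart.

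The neighbours of a few genes on the chromosome also differed between the lines. Other genes within 5 Mb of each ribosomal protein gene had a median difference within 0.3 log2 of zero in every state for 74 of the 80 genes. The exceptions were RPS23, RPS14, RPL26L1 and RPL37, which are all the members on chromosome 5, RPS27 on chromosome 1 and RPS12 on chromosome 6. The neighbours of RPS23 (30 genes tested) had a median of −0.43 in M0, −0.35 in M1 and −0.56 in M2, those of RPS14 (43 genes) −0.44, −0.41 and −0.35, and those of RPL26L1 (61 genes) −0.46, −0.55 and −0.54.

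The neighbours of RPL37, on the short arm of chromosome 5, lay above zero, with medians of 0.45, 0.57 and 0.46 over 46 genes, and those of RPS27 had 0.56, 0.50 and 0.52 over 183 genes. RPL37, a large subunit protein, was at 39.3, 38.0, 42.2 and 36.0 FPKM in WT M0 and at 35.2, 39.3, 40.2 and 35.1 FPKM in CES1KD M0. Its differences of −0.05, −0.20 and 0.19 did not pass the test, and the libraries overlapped in every state. Relative to the median of the ribosomal protein genes in M0, the log2 difference was 0.49 for RPL37 and 0.81 for RPS27. It was −0.77 for RPS23, −0.53 for RPS14 and −0.22 for RPL26L1. Relative to the median in M1, RPL26L1 lay at 0.06, with neighbours at −0.55. RPS12 lay at 0.06 in M0 and 0.15 in M1 on this scale, with neighbours at −0.24 and −0.39. RPL7, whose neighbours had a median of −0.05 in M0, lay at −0.53 there. The part of the chromosomal position in these differences was not tested. The median of the 74 genes with unshifted neighbours was −0.54, −0.71 and −0.56, as large as that of all 80.

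**Figure D4:**
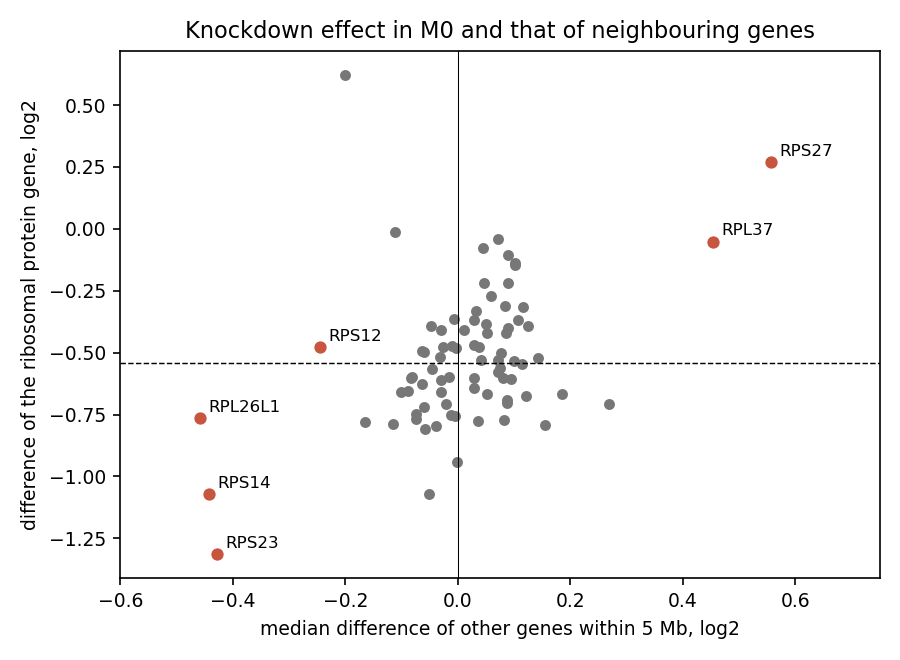
Log2 difference between CES1KD and WT in M0 for each ribosomal protein gene (vertical axis) against the median difference of the other genes tested within 5 Mb of it (horizontal axis); red points are the 6 genes whose neighbours passed 0.3 in some state, and the dashed line is the median of the 80 genes, −0.54. RPS23 and RPS14 have low neighbours, RPL37 and RPS27 have raised neighbours, and most other points lie between these, below zero.

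Both subunits held most of the calls. In M0, 39 of 49 large and 24 of 31 small subunit genes were called lower, with medians of −0.58 and −0.53. In M1 the counts were 41 and 28, with medians of −0.70 and −0.72, and in M2 39 and 27, with medians of −0.59 and −0.56. Genes with and without a tract at the annotated start also had close medians, at −0.56 and −0.60 in M0 (45 and 19 genes). The 16 tested genes with no annotated start were left out of this split. Of the 45 with a tract, 34, 39 and 36 were called lower in M0, M1 and M2. Of the 19 without a tract, 17, 18 and 19 were called lower. The same medians were −0.72 and −0.65 in M1, and −0.56 and −0.62 in M2. No test was made of these subgroups.

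The 12 genes on chromosome 19 had a median difference of −0.29 in M0, against −0.60 for those on other chromosomes, while 896 other genes tested on chromosome 19 had a median of 0.05. In M1 the same medians were −0.52 and −0.72, and in M2 −0.43 and −0.60. RPS19, whose loss causes Diamond-Blackfan anaemia, is one of them. It was at 91.3, 89.8, 88.5 and 97.6 FPKM in WT M0 and at 80.2, 85.2, 86.8 and 89.1 FPKM in CES1KD M0, which overlapped. It was called lower in M1 at −0.52 and in M2 at −0.41 (−0.24 without the library that stood apart), but not in M0 at −0.10 (limma adjusted p 0.449). The chromosome 19 genes RPL28 (−0.04, −0.08 and −0.32 in M0, M1 and M2) and RPL36 (−0.27, −0.43 and −0.29) were called in no state. The libraries of RPL36 varied widely within groups, from 45.4 to 98.6 FPKM in WT M1 and from 21.3 to 74.0 FPKM in CES1KD M2. Across the 80 genes, the Spearman rho between the difference and the GC content of the main mRNA was 0.45 in M0, 0.26 in M2 and 0.08 in M1, against 0.08, −0.01 and 0.05 across 10861 other coding genes. These correlations are across genes that share libraries and base composition, and they describe only these libraries.

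The change of the knockdown difference from M0 to M1 was negative for 70 of the 80 genes, with a median of −0.15 against 0.00 for all genes. Few of these changes passed the test. The change was called negative for 9 of the 80 genes (11.25%) and positive for 1, RPS27L (limma, adjusted p under 0.05). In this main setting, these shares were not above those of all genes, 13.2% and 10.4%. Leaving out CES1KD M2 replicate 2, which enters only the shared estimate of the spread, gave 18 negative. RPSA had the largest negative change, −0.54 (SE 0.058, adjusted p 3.28e-07): it stood at 160, 155, 150 and 164 FPKM in WT M0, at 106, 111, 112 and 116 FPKM in CES1KD M0, at 132, 128, 138 and 135 FPKM in WT M1 and at 62.6, 63.6, 68.1 and 63.3 FPKM in CES1KD M1. The 4 groups of RPSA did not overlap. The others included RPL35 (−0.46), RPL10A (−0.34), RPL29 (−0.29), RPLP0 (−0.21) and RPL3 (−0.19). Between M2 and M0 none of the 80 was called to differ in its knockdown difference by limma (all genes 4.24% lower and 2.41% higher), with a median of −0.04, and of 0.04 without the library that stood apart. At an unadjusted p under 0.05, 2 of the 80 were lower and 0 higher (all genes 10.6% and 7.12%).

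LPS plus interferon gamma lowered ribosomal protein genes in both lines. In WT, 35 of 80 were lower in M1 than in M0 and 2 higher (limma, adjusted p under 0.05; all genes 21.8% and 26.4%), with a median of −0.27. In CES1KD, 51 were lower and 1 higher (all genes 19.8% and 24.9%), with a median of −0.42. The 2 responses have no library in common, and RPS23 (−0.54 in WT, −0.86 in CES1KD), RPL7 (−0.62 and −0.63), RPL22 (−0.66 and −0.69) and RPLP0 (−0.61 and −0.82) fell in both. With library size taken as total fragments, the median of all genes moved to −0.20 in WT and −0.18 in CES1KD, and the ribosomal protein genes lay 0.32 and 0.48 below it (members minus all genes, −0.32 and −0.48).

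The 2 genes called higher in WT M1 were RPL22L1 and RPS20. RPL22L1 went from a mean of 4.67 FPKM in M0 to 7.26, 6.49, 6.49 and 5.20 FPKM in M1, a difference of 0.37 (adjusted p 0.0382). RPS20, a small subunit head protein, was at 172, 168, 162 and 173 FPKM in WT M0 and at 187, 174, 195 and 196 FPKM in WT M1, a difference of 0.15 with limma's adjusted p at 0.0497. Both calls were lost without the filter, and that of RPL22L1 also with a replicate block, with total fragments as library size (0.16) and on leaving out WT M0 replicate 1 or 3 or WT M1 replicate 1, 2 or 3 (0.31 to 0.38). The call of RPS20 was lost on leaving out any WT M0 library among others, and with total fragments it had −0.10 instead. RPS27L was called lower in WT M1, at −0.29, and higher in CES1KD M1, at 0.34.

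After IL-4 the summed share of these genes overlapped that of the resting libraries in both lines. In WT, 6 of 80 genes were higher in M2 than in M0 and 1 lower (limma, adjusted p under 0.05; all genes 14.6% and 12.5%), with a median of 0.01, and with total fragments as library size the counts were 1 higher and 4 lower. RPS26, at the mRNA exit channel, rose most, from 107, 115, 115 and 121 FPKM to 136, 150, 136 and 151 FPKM, a difference of 0.32 (SE 0.088, adjusted p 0.00836) with no overlap. The others included RPL7L1 (0.25), RPLP0 (0.18), RPL29 (0.15) and RPSA (0.14), and RPS27L was lower at −0.20, which was lost without WT M2 replicate 3 (−0.18). The calls of RPLP0 and RPL7L1 were lost with total fragments (0.0743 and 0.15) and without WT M0 replicate 3 (0.15 and 0.23), and also without WT M2 replicate 4 for RPLP0 (0.14) or replicate 2 for RPL7L1 (0.22). That of RPSA was lost with total fragments (0.0429) and without WT M0 replicate 3 (0.12). That of RPL29 was lost with total fragments (0.0511) and on leaving out any 1 of 17 of the 24 libraries (0.13 to 0.16). In CES1KD, 1 gene was higher and 2 lower in M2 (all genes 11.3% and 11.5%; 1 higher and 5 lower with total fragments): RPL7L1 at 0.23, RPS27L at −0.24 and RPL15 at −0.21. RPL7L1 in CES1KD M2 ranged from 31.5 to 31.9 FPKM in 3 libraries and stood at 41.9 FPKM in replicate 2, and its call was lost without that library (0.14, limma adjusted p 0.101), where RPLP0 was called higher instead (0.14).

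**Figure D5:**
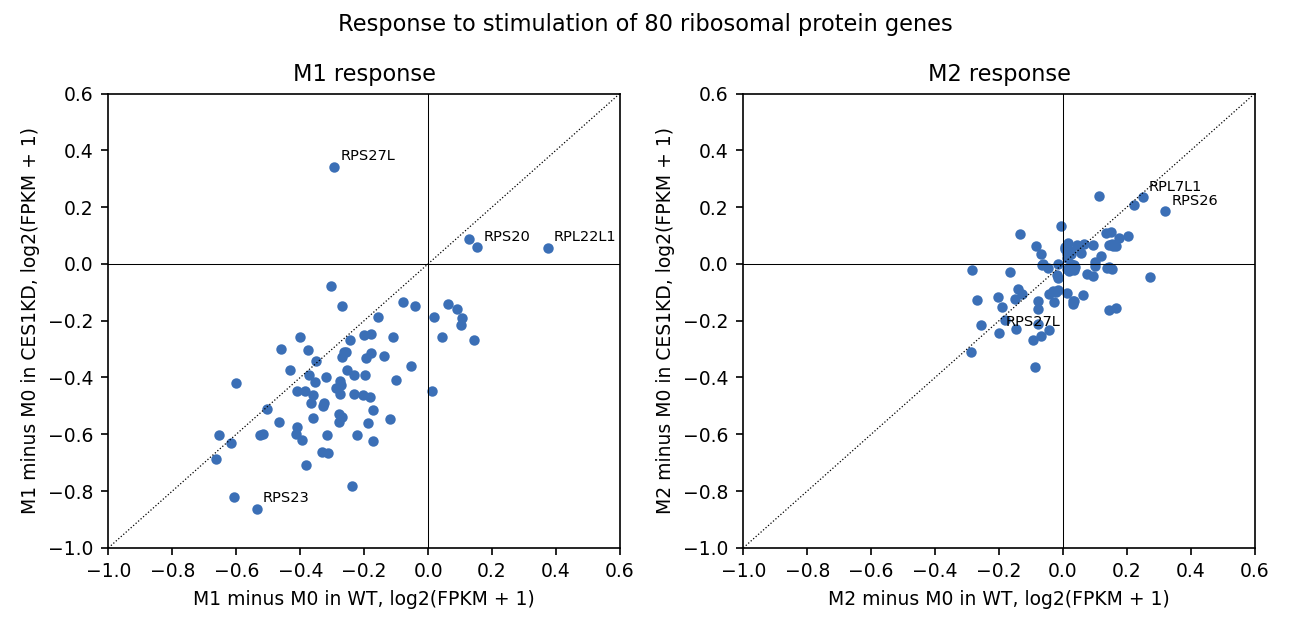
Log2 difference between stimulated and resting macrophages in CES1KD (vertical axis) against WT (horizontal axis) for each of the 80 genes, for M1 (left) and M2 (right); the dotted line marks equal differences. In M1 most points lie at lower left (medians −0.27 in WT and −0.42 in CES1KD) with RPS27L at −0.29 and 0.34, and in M2 the points gather around zero.

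The remaining proteins of the cytosolic ribosome and the translation factors with TOP mRNAs moved in the same direction as the ribosomal protein genes. The gene lists used from here on were chosen with earlier results of these data known. Of the 4 further ribosomal genes, the counts called lower in CES1KD were 4, 4 and 3 for M0, M1 and M2 (all genes 26.3%, 28.7% and 26.7%), with list medians of −0.54, −0.54 and −0.41 against about 0.00 for all genes. RACK1, a scaffold protein of the small subunit encoded on chromosome 5, fell by 1.02, 1.09 and 0.97, and FAU, which encodes a small subunit protein fused to a ubiquitin-like domain, fell by 0.19, 0.41 and 0.25. RPL36AL fell by 0.64 in M0 and 0.62 in M1 and had −0.24 in M2, which did not pass.

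Of 17 translation factors and other TOP mRNAs tested (18 listed), 16 were called lower in M0, 14 in M1 and 14 in M2 and none higher (all genes 26.3%, 28.7% and 26.7% lower), with medians of −0.53, −0.42 and −0.43. EEF1A1, which delivers aminoacyl-tRNA to the ribosome, fell by 0.72, 0.42 and 0.65. EEF1B2, its exchange factor, fell by 0.67, 0.98 and 0.61. EIF4B, an initiation factor, fell by 0.80, 0.68 and 0.63, and NPM1, a nucleolar chaperone encoded on chromosome 5, by 0.83, 1.25 and 0.89. The knockdown difference of EEF1A1 was smaller in M1 than in M0 (change 0.29, adjusted p 0.000602), unlike that of EEF1B2 (change −0.31, adjusted p 0.00529).

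Genes that build ribosomes had no common direction in resting cells. Of 35 assembly factors tested (36 listed), 10 were called lower and 6 higher in M0 (median −0.01; all genes 26.3% and 28.1%), and 10 lower and 5 higher in M2 (median −0.04; all genes 26.7% and 25.6%). In M1, 31 were lower and none higher (all genes 28.7% and 28.5%), with a median of −0.66, and the change of the difference from M0 to M1 was called negative for 28 (all genes 13.2%). In WT, 16 of these 35 were higher in M1 than in M0 and none lower (all genes 26.4% and 21.8%), and in CES1KD 29 were lower and none higher (all genes 19.8% and 24.9%). NOP16, a nucleolar protein encoded on chromosome 5, had −0.77, −1.45 and −0.52, NOLC1, a snoRNP chaperone, −0.12, −0.99 and −0.21, and NCL, nucleolin, −0.26, −0.87 and −0.23, all called, whereas MRTO4 rose by 0.47 in M0 and 0.23 in M2 and fell by 0.19 in M1.

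The regulators of TOP mRNAs were mixed. Of 17 tested, 1 was called lower and 6 higher in M0 (all genes 26.3% and 28.1%), 4 lower and 5 higher in M1 (all genes 28.7% and 28.5%), and 2 lower and 3 higher in M2 (all genes 26.7% and 25.6%), with medians of 0.18, −0.04 and 0.07. Without the library that stood apart, the counts lower were 2, 6 and 3 in the 3 states and those higher 9, 5 and 6. LARP1, the repressor and stabiliser that binds the TOP tract and is encoded on chromosome 5, was lower in all 3 states, at −0.44, −0.72 and −0.53. On that chromosome, genes within 5 Mb of RPS14 had medians of −0.44, −0.41 and −0.35. Those around RPL26L1 had −0.46, −0.55 and −0.54. The part of chromosomal position in the differences of LARP1, RACK1, NPM1 and NOP16 was not tested. RPS6KB2, an S6 kinase, was higher in all 3, at 0.38, 0.49 and 0.26. MYC, a transcription factor that drives ribosome production, was higher in M0 (0.23) and M2 (0.36) and lower in M1 (−0.84), and the change from M0 to M1 was −1.07 (limma adjusted p 6.93e-07). Of 12 snoRNA host RNAs, many of which carry TOP tracts, 2 were lower and 2 higher in M0, 5 lower and 1 higher in M1 and 1 lower and 3 higher in M2, against the same shares of all genes, and without the library that stood apart the counts higher were 3, 1 and 5 in the 3 states. LRRC75A-AS1, such a host, fell by 0.64, 0.87 and 0.43, GAS5 by 0.25 in M0 and 0.39 in M1, and SNHG12 rose by 0.56, 0.46 and 0.88.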

How the data were processed

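Gene-level FPKM values were deposited by the authors in 1 table for all 24 libraries, with gene names, biotypes, lengths and coordinates. As tools of the authors, the submitters' processing notes name CASAVA, HISAT2 and DESeq, and the sources used here give neither versions nor roles. RNA with an integrity number above 4 went into the libraries, per the labels' protocols. Coordinates of all 84 members were identical to GENCODE 29 on GRCh38. In each library, 100% of the products of FPKM and gene length were whole multiples of 1 value (tolerance 1e-06), which gave back fragments, and the authors' library sizes were proportional to median-of-ratios size factors, 0.870 to 1.14 times the total. Tests were on log2(FPKM + 1), which understates changes of low genes, with limma 3.58.1 in R 4.3.3 (6 group means, trended variance, two-sided, Benjamini-Hochberg over the 13242 genes kept). The members and gene lists were chosen with earlier results of these data known. Named genes were the 4 highest and 4 lowest called members in each knockdown comparison, the 3 highest and 3 lowest in each WT response, all paralogues with their partners, chromosome 5 members, the 3 highest and 3 lowest levels, and up to 2 genes per list and comparison by p. RPSA, RPS6, RPS19, RPL10, the genes of short called lists and chromosome 19 genes were named after their values were seen, and a few genes that these rules name are not reported here. Alternatives were a pseudocount of 0.1, no filter, total fragments or TMM as library size, a replicate block, members without those on chromosomes 1, 5 and 8, and leaving out each library. The procedure was tested on simulated data in which each gene varied independently, with the same dispersion for all. Such data cannot show how counts of genes that vary together behave.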

Additional observations from a re-analysis of the deposited data

Results flagged for a closer look

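In groups of 4 libraries, 1 library lay apart from the other 3 in 15 of 324 groups of named genes checked, where chance gives about 1 in 20, or 16.2. Replicate 2 of CES1KD M2 held 7 of these. There RPL22L1 was at 5.54 FPKM (others 8.22 to 8.62), RPS14 at 37.5 FPKM (others 68.0 to 72.4), RPL10 at 30.0 FPKM (others 61.6 to 66.2), RPL26L1 at 11.4 FPKM (others 14.7 to 15) and RPS12 at 237 FPKM (others 351 to 364). In the same library RPL7L1 was higher, at 41.9 FPKM (others 31.5 to 31.9), as was the assembly kinase RIOK2, at 8.13 FPKM (others 5.38 to 5.76).

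In the other libraries, RPL37A was at 109 FPKM (others 81.9 to 85.6) and RPL10 at 94.9 FPKM (others 83.1 to 84.6) in WT M2 replicate 4, and RPL3 was at 128 FPKM (others 136 to 137) in CES1KD M0 replicate 1. RPL36AL at 149 FPKM (others 112 to 114) and WDR12 at 4.10 FPKM (others 4.59 to 4.67) stood apart in WT M1 replicate 4. MRTO4 was at 30.7 FPKM (others 32.9 to 33.3) in CES1KD M2 replicate 3, TAF1A at 3.51 FPKM (others 2.56 to 2.72) in WT M2 replicate 2 and POLR1E at 13.2 FPKM (others 11.7 to 12.0) in CES1KD M0 replicate 4.

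The knockdown difference of some named genes differed between M1 and M0 by limma's test of that change. Among the ribosomal protein genes these included RPS27L, with a change of 0.64, RPLP0 with −0.21 and RPL3 with −0.19, besides RPSA (−0.54), RPL35 (−0.46), RPL10A (−0.34) and RPL29 (−0.29). Among the genes of the other lists, EEF1A1 changed by 0.29, while EEF1B2 (−0.31), NPM1 (−0.42), LRRC75A-AS1 (−0.24), NOP16 (−0.69), MRTO4 (−0.66), NOLC1 (−0.86), NCL (−0.61) and WDR12 (−0.44) changed towards lower values in M1. TAF1D (−0.32), TAF1A (−0.63), POLR1E (−0.66) and POLR1A (−0.93), which serve RNA polymerase I, changed in the same direction. So did LARP1 (−0.28), MYC (−1.07) and the mitochondrial ribosomal genes MRPS27 (−0.43) and MRPL30 (−0.35). Between M2 and M0 only TAF1D passed among the named genes, with a change of 0.34, which was lost without replicate 2 of CES1KD M2 (0.30), where GAS5 (0.26) and SNHG12 (0.54) passed.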

How the results depend on the processing

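The counts of genes called lower in the 3 knockdown comparisons, and their medians, kept their direction and stayed within 1.5 times (counts) or the replicate spread (medians) under every alternative run. With total fragments as library size, knockdown M1 called 0 higher, WT M1 called 66 lower and 0 higher (median −0.52), WT M2 called 4 lower and 1 higher, CES1KD M1 had a median of −0.67 and CES1KD M2 called 5 lower. The CES1KD to WT ratio in M0 was 0.695 of summed FPKM and 0.640 of shares of fragments. Without the filter, WT M1 and CES1KD M2 each called 0 higher. Without members on chromosomes 1, 5 and 8, WT M1 called 1 higher. Deviations of same-numbered libraries correlated above 0.1 in 14 of 60 pairs, and 9 of 24 libraries correlated best with their own number. Between WT and CES1KD of a state they ranged from −0.0354 to 0.0329 in M0, 0.0431 to 0.413 in M1 and −0.0578 to 0.41 in M2 over all genes, and over the 80 genes from −0.256 to 0.312, 0.385 to 0.911 and −0.0972 to 0.764. Not every pair passed 0.1, so the numbers were not taken to pair libraries. Over the 80 genes, however, all 4 M1 pairs passed it, and the unpaired test leaves such a shared part in its standard error. With a replicate block, 67, 70 and 72 genes were called lower in knockdown M0, M1 and M2, against 63, 69 and 66 without it. With that block, 15 genes had a lower knockdown difference in M1 than in M0, WT M1 called 1 higher and CES1KD M2 4 lower. The shares of all genes with the block are not given here.

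With 1 library left out, the calls ranged from 0 to 2 higher in knockdown M1, 7 to 18 lower for the change from M0 to M1, 0 to 2 higher in WT M1, 0 to 1 lower and 1 to 8 higher in WT M2, and 2 to 4 lower and 0 to 2 higher in CES1KD M2.

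With total fragments, differences turned to −0.10 (RPS20) and −0.16 (RPL7L1) in WT M1, and in WT M2 to −0.0465 (RPL22L1), −0.00106 (RPS23), −0.0696 (RPS14), −0.00831 (RPL21), −0.0894 (RPS20), −0.00726 (RPL3), −0.0877 (RPS18) and −0.0687 (RPL13A). With 1 library left out, differences near zero changed sign in WT M2 for RPL22L1 (−0.0396 to 0.19), RPS14 (−0.0305 to 0.0968), RPS18 (−0.0630 to 0.0838), RPS20 (−0.0204 to 0.0615) and RPS27 (−0.18 to 0.0277), in WT M1 for RPL37 (−0.29 to 0.0423) and RPS26 (−0.16 to 0.0389), and in the knockdown comparisons for RPL39L (−0.21 to 0.0476, −0.0104 to 0.33 and −0.12 to 0.12 in M0, M1 and M2) and RPS27 in M2 (−0.0471 to 0.31). The cause was not tested. The edgeR alternative was not run, since the deposited unit is FPKM. RPL3L, RPL10L, RPL36A and RPS10 were too low to test at this depth.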

Other observations

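Genes of the mitochondrial ribosome, whose proteins are encoded in the nucleus, were called in both directions, but more often lower than higher in CES1KD in every state. Of 75 genes tested (78 listed), 27 were called lower and 8 higher in CES1KD M0 (median −0.14; all genes 26.3% and 28.1%), 46 lower and 3 higher in M1 (median −0.39; all genes 28.7% and 28.5%) and 29 lower and 4 higher in M2 (median −0.18, or −0.12 and 6 higher without replicate 2 of CES1KD M2; all genes 26.7% and 25.6%), against a median of about 0.00 for all genes. MRPS27, on chromosome 5, fell by 0.80, 1.23 and 0.66, MRPL44 by 0.57, 0.80 and 0.58 and MRPL30 by 0.51, 0.86 and 0.72. The part of chromosomal position in the fall of MRPS27 was not tested. In WT, 21 of the 75 were higher in M1 than in M0 and 3 lower (all genes 26.4% and 21.8%; 6 lower without that library), and in CES1KD 6 were higher and 27 lower (all genes 24.9% and 19.8%).

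Of 14 genes of RNA polymerase I and its factors, which make the large ribosomal RNAs, 2 were lower and 2 higher in CES1KD M0 (all genes 26.3% and 28.1%) and in M2 (26.7% and 25.6%), and 9 lower and 1 higher in M1 (28.7% and 28.5%), with medians of −0.04, 0.01 and −0.29. Without replicate 2 of CES1KD M2, 4 were lower and 3 higher in M0 and 1 lower and 2 higher in M2, with an M2 median of −0.06. POLR1A, the largest subunit, had 0.14 in M0 and 0.01 in M2, which did not pass, and fell by 0.79 in M1; the M0 value passed without that library. TAF1D, a promoter factor of this polymerase, was higher in all 3 states, at 0.74, 0.43 and 1.08.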
